A study of Mus musculus with 8 samples.

Results

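Otx1, Otx2 and Gbx2 are homeobox genes that divide the early neural tube into an anterior and a posterior territory. They were chosen by the gene symbol of the array's probe annotation, which gave 3 genes with 1 probe each, of 23912 named genes and 55681 probes on the array. Expression was measured in mouse embryos at day E14.5 that carried 1 Gfp allele of Pitx3 (genotype Pitx3(gfp/+)), a transcription factor gene that marks midbrain dopaminergic neurons. Ventral midbrain was cut into a rostral and a caudal part, dissociated with papain and sorted, and the Gfp-positive cells formed 4 rostral and 4 caudal pools. A pool came from 5 to 7 embryos, with litters mixed across pools. Each array set 1 pool, in Cy3, against a common reference in Cy5, which was made of the Gfp-negative cells of those same embryos and so shares their genotype and age. Each pool therefore stands for several embryos, not for 1 animal, and the labels do not say which of 2 sorters handled which pool.

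OTX1 and OTX2 are related homeodomain transcription factors of the forebrain and midbrain, and OTX2 is needed for these regions to form. GBX2 is a homeodomain factor of the anterior hindbrain. The OTX and GBX factors repress each other's genes, and the line where their domains meet becomes the isthmic organiser, a source of FGF8 and WNT1 that patterns midbrain and cerebellum. Later in development Otx2 is kept in part of the dopaminergic neurons, mainly those of the ventral tegmental area, and Gbx2 is also expressed in the developing thalamus.

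The promoter sequences of the genes that differed between the parts are shown because each encodes a factor known to act on the other's gene. RefSeq promoters (build GRCm38.p6) were matched for 2 of the 3 members, Gbx2 with 1 start site and Otx2 with 4. The 250 bases before a start site were searched on both strands for TAATCC, the core that OTX factors prefer (GGATTA on the other strand), and for TAATTA, a core bound by many other homeodomains, which reads the same on both strands. Both start with TAAT and could overlap, but no 2 matches overlapped in the sequences printed. Over 32851 such windows of the genome, 6.25% held TAATCC and 4.84% held TAATTA. The Otx2 window at chr14:48665110-48665359 held 1 TAATCC and 3 TAATTA, the one at chr14:48667645-48667894 held 1 TAATTA, and the other Otx2 windows and the Gbx2 window at chr1:89931177-89931426 held neither. All lie on the minus strand. A match is a description of the letters only. In the sequences below, read 5′ to 3′ on the gene's strand, capitals mark the matches.
Otx2 chr14:48665110-48665359: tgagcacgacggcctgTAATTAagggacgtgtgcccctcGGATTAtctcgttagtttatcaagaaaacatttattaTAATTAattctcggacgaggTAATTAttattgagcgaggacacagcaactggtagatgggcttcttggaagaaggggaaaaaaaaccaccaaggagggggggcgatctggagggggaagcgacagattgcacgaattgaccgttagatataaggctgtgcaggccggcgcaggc
Otx2 chr14:48667645-48667894: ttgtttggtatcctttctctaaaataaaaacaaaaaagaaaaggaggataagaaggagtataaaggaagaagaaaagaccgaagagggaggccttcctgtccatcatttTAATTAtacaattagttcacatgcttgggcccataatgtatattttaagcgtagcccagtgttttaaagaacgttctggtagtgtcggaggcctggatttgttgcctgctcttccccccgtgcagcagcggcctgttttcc
Gbx2 chr1:89931177-89931426: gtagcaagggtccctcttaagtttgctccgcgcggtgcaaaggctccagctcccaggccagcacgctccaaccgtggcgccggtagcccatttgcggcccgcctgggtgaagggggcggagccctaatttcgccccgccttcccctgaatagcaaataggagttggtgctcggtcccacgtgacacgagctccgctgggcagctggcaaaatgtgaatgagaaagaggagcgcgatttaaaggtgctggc

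The share of the 55681 probes that stood well above background ran from 62.5% to 70.4% for the Gfp-positive RNA and from 54.0% to 63.5% for the reference RNA, and no Cy3 spot was saturated. The sorted cells carried the markers of midbrain dopaminergic neurons. All 8 such markers were above the reference in both parts, with a median log2 ratio of 3.68 in rostral and 3.66 in caudal pools. Pitx3 itself had a log2 ratio of 3.58 ± 0.12 in the rostral and 3.59 ± 0.10 in the caudal part (SD, n = 4), a difference smaller than the spread of the pools in the gene used for the sort. The labels call the pools biological replicates, and that spread among pools is what the p-values rest on. Precision is set by having 4 arrays a part.

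The comparison of rostral with caudal Gfp-positive pools asks how dopaminergic neurons differ along the midbrain. By the ratio to the reference, Otx2 was 4.21-fold higher in caudal pools. Gbx2 was higher in rostral pools, by a fitted 1.51 (log2) in the ratio. Its signal in the sample channel alone, a different measure, was at least 2.88-fold higher there. That is a bound because no caudal pool measured Gbx2 above background. The 2 genes changed in opposite directions. Otx1, dim in both parts, did not pass the test. By limma at an adjusted p below 0.05, 2 of the 3 members changed, against 6.33% of the 18099 genes tested. Gbx2 was higher in rostral pools, as were 3.53% of genes, and Otx2 lower, as were 2.8%. Both passed 2-fold, as did 1.7% of genes. Gbx2 met the filter of 4 arrays through its rostral arrays alone.

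Otx2, the forebrain and midbrain factor, was measured well above background in every pool. Its log2 ratio to the reference was -2.53, -1.54, -3.45 and -2.24 in rostral pools 1 to 4, and -0.29, -0.57, -0.36 and -0.25 in caudal pools 1 to 4. Every caudal pool lay above every rostral pool, and the rostral pools were the more spread (SD 0.79 against 0.14, n = 4 each). The difference of rostral minus caudal was -2.07 on the log2 scale (SE 0.32, limma adjusted p = 0.0062), which ranked 35 by size among the genes tested. Groups that do not overlap were seen for 12.5% of all genes tested, and for Otx2 and Gbx2 among the members.

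The difference in Otx2 was seen in the sample channel. The raw median pixel intensity of its spot was 19688, 35706, 10312 and 22634 in rostral pools and 84569, 70831, 73288 and 79450 in caudal pools, over a local background of 69 to 77. In the reference channel the same spot read 118184 to 155111 on rostral arrays and 119751 to 158127 on caudal arrays. After normalization the log2 signal of the sample channel was 14.44 ± 0.74 in rostral and 16.44 ± 0.17 in caudal pools (SD, n = 4; exact permutation p = 0.0286, 2-sided, the smallest that 4 against 4 allows; adjusted p = 0.0857 over 6 tests). The reference channel differed by 0.07 (exact permutation p = 0.143). Because the samples are pools of cells, fewer Otx2-expressing cells and less Otx2 RNA per cell cannot be told apart.

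Gbx2, the anterior hindbrain factor, showed the opposite pattern. Its log2 ratio to the reference was -0.42, -0.90, -0.26 and -0.64 in rostral pools 1 to 4 and -1.96, -2.29, -2.11 and -1.91 in caudal pools 1 to 4. All rostral pools lay above all caudal pools. The fitted difference was 1.51 (log2, SE 0.17, limma adjusted p = 0.0016), whose size depends on the offset added to the signals. The scanner flagged the Gfp-positive signal as well above background on 4 of 4 rostral arrays and 0 of 4 caudal ones, with raw intensities of 231 to 349 and of 102 to 116 over a local background of 71 to 79. The caudal level is thus only a bound, and the rostral signal of Gbx2 exceeded it at least 2.88-fold (measured log2 means 8.10 and 6.55; "at least" sets the bright group's mean against the higher, per array, of the probe's own signal and the lowest signal called well above background). The processed signals of the scanner software, which carry no offset, gave a fitted difference of 3.61 (adjusted p = 0.0010), no better measured in caudal pools. The sample channel alone gave an exact permutation p of 0.0286 (2-sided, adjusted p = 0.0857 over 6 tests). In the reference channel Gbx2 differed by 0.04 between the arrays of the parts (exact permutation p = 0.571).

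Otx1, the relative of Otx2, was near the limit of detection. Its log2 ratio was -0.77, -0.40, -1.05 and -0.51 in rostral pools 1 to 4 and 0.19, -0.03, -0.67 and -0.24 in caudal pools 1 to 4, so the groups overlapped. It was well above background in 1 of 4 rostral and 3 of 4 caudal pools, at raw intensities of 98 to 143 and 126 to 228 over a local background of 72 to 82. The difference was -0.50 (SE 0.21, limma adjusted p = 0.229), with a 95% interval of -0.96 to -0.03 that is not adjusted for the number of genes. The processed signals gave -1.65 (SE 0.64, adjusted p = 0.19). The size of any difference in Otx1 was therefore not settled by these arrays.

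**Figure D1:**
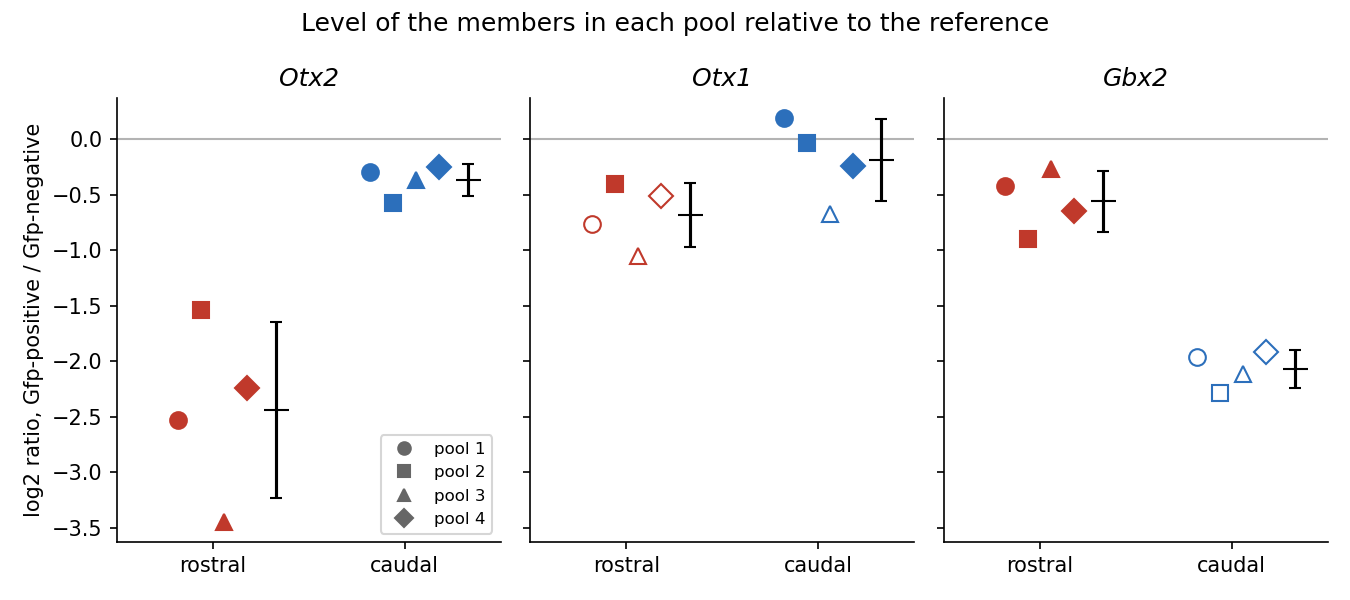
Log2 ratio of Gfp-positive cells to the Gfp-negative reference for Otx2, Otx1 and Gbx2 in each of the 4 rostral (red) and 4 caudal (blue) pools, with the mean and SD beside them in black. Open symbols mark pools whose sample channel was not well above background; the parts do not overlap for Otx2 (caudal higher) and Gbx2 (rostral higher) and overlap for Otx1.

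**Figure D2:**
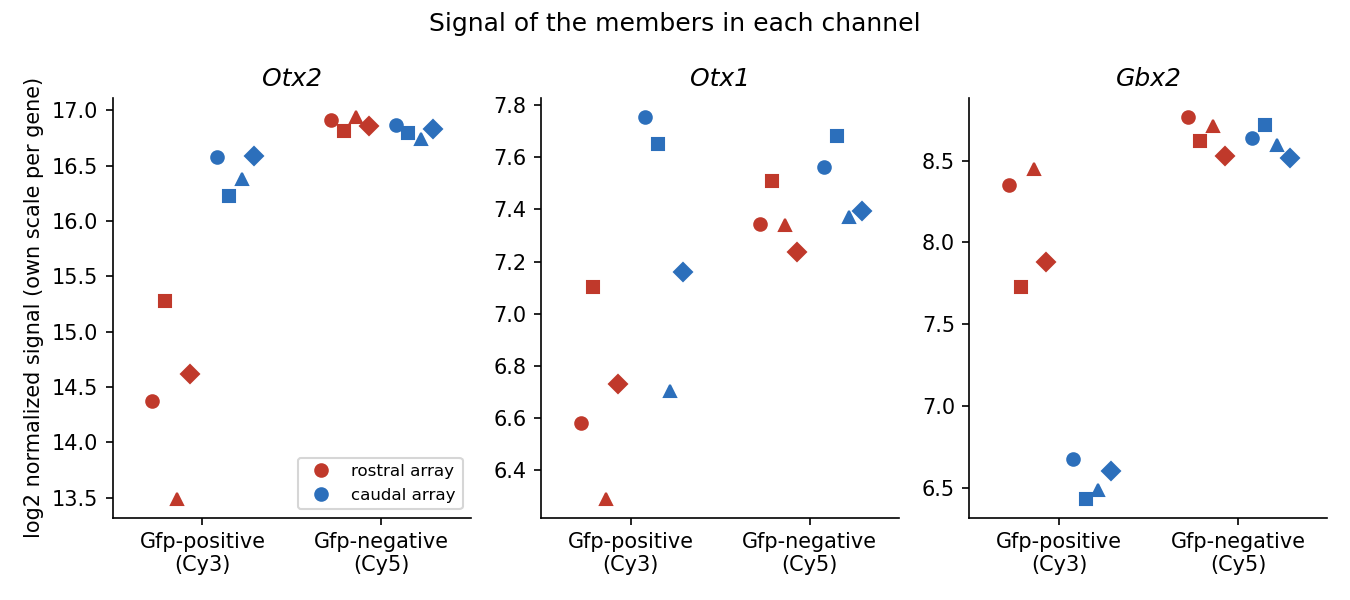
Normalized log2 signal of each member in the sample channel (Cy3) and the reference channel (Cy5) on rostral (red) and caudal (blue) arrays, with 1 symbol shape per pool number and a separate vertical scale for each gene. The parts separate in the sample channel for Otx2 and Gbx2, while their reference signals differ by 0.07 and 0.04.

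The rostral pools differed among themselves in a shared order. From high to low, Otx2 ran pool 2, 4, 1, 3, and Otx1 ran in the same order. Of these rostral pools, only pool 2 had Otx1 well above background, so its order is weakly measured. Gbx2 ran in exactly the reverse order, from pool 3 (-0.26) to pool 2 (-0.90). Rostral pool 2 was thus nearest to the caudal pools in all 3 members, and rostral pool 3 was farthest from them in Otx2. In the caudal pools Otx2 and Gbx2 both ran 4, 1, 3, 2, with Gbx2 not well above background there. The summed signal of subthalamic and hypothalamic markers ran in the order of Gbx2 in rostral pools, 10444 in pool 3, 9502 in pool 1, 8258 in pool 4 and 6990 in pool 2. That of midbrain GABAergic markers was highest in pool 1 (248418) and lowest in pool 2 (152985). The part of these cells in the order was not tested. The 4 pools of a part are too few for a correlation between the members, so none is given.

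**Figure D3:**
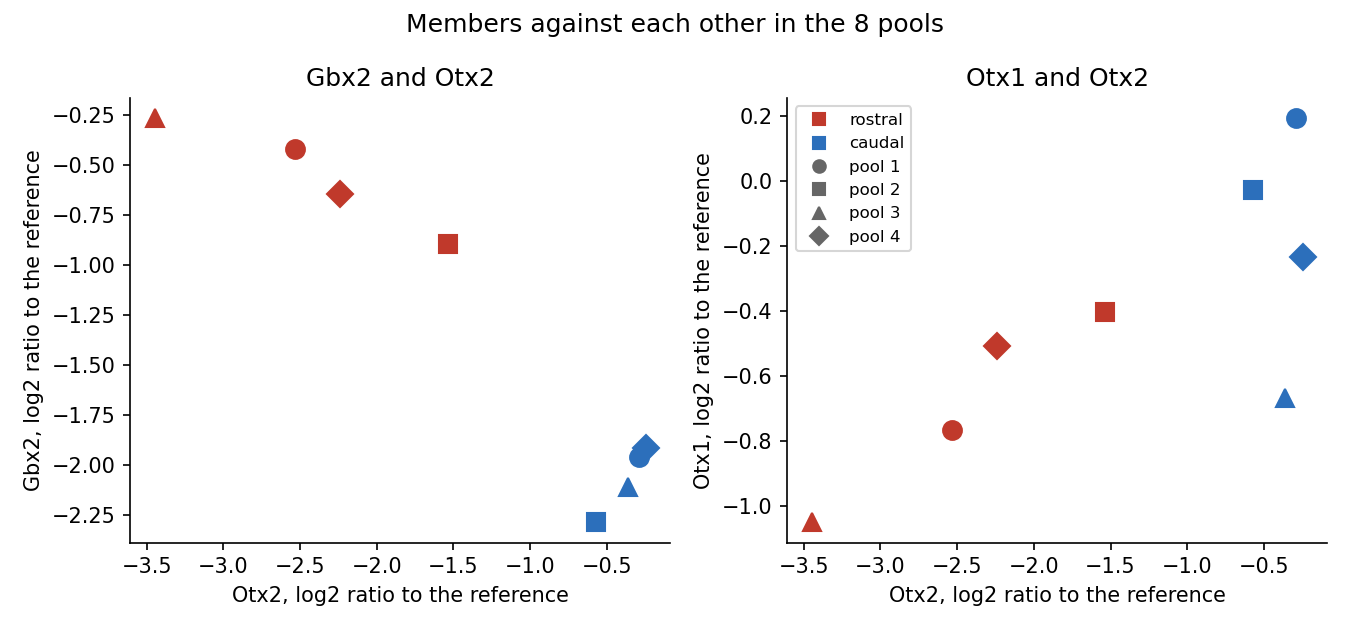
Log2 ratio of Gbx2 (left) and Otx1 (right) against that of Otx2 in the 8 pools, rostral in red and caudal in blue, with 1 symbol shape per pool number. Among rostral pools, Otx2 runs from -3.45 in pool 3 to -1.54 in pool 2 while Gbx2 falls from -0.26 to -0.90 and Otx1 goes from -1.05 to -0.40. Otx1 was well above background in pool 2 only among these.

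Among other genes that ran in this order were Nkx6-1 and En1. The share of all genes that do so was not counted. Nkx6-1, a ventral neural tube homeobox gene, was at -1.83 in rostral pool 2 and -3.48 in pool 3 (log2 ratio), with pools 4 and 1 between, as for Otx2. The engrailed gene En1, of midbrain and anterior hindbrain, ran in that order too, from 1.92 to 1.40. Th, which encodes tyrosine hydroxylase, did not follow it, being highest in pool 3 (3.50) and lowest in pool 4 (3.26). Nor did En2 (pool 2, 1, 4, 3), Pitx3 (1, 3, 2, 4) or Nr4a2 (3, 2, 1, 4). These genes were named after their values were seen.

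The comparison with the reference asks whether the members were richer in the sorted neurons or in the remaining cells of the ventral midbrain. All 3 members were lower in Gfp-positive cells over the 8 pools, against 36.9% of the 18559 genes tested being lower, 34.6% higher and 71.5% changed. That balance turned with the scaling, from 6420 genes higher and 6854 lower to 8407 and 5263 with median centring and 7291 and 6243 in the processed signals, while the members stayed lower. Otx2 was 2.65-fold lower (log2 -1.40, SE 0.16, adjusted p = 2.9e-05), while the fitted log2 difference was -1.31 for Gbx2 (SE 0.08, adjusted p = 4.0e-07) and -0.43 for Otx1 (SE 0.10, adjusted p = 0.0040; all by limma). The last 2 are not folds, since the sample channel was well above background in 4 of 8 pools for each. The ratio was below 0 in 8 of 8 pools for Otx2 and Gbx2 and in 7 of 8 for Otx1. In the processed signals the differences were -1.27, -2.51 and -1.29. The reference is a single control RNA without a measured spread of its own. It was always labelled with Cy5, so a bias between the dyes would enter these values.

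How far the members lay below the reference differed between the parts. In rostral pools Otx2 was 5.43-fold below the reference (log2 -2.44 ± 0.79, SD, n = 4; limma adjusted p = 1.1e-05). In caudal pools it was 1.29-fold below it (-0.37 ± 0.14), which did not pass the test (adjusted p = 0.19, 95% interval -0.88 to 0.14). The caudal Otx2 ratios ran from -0.57 to -0.25. The fit shares 1 estimate of spread over all arrays, with an SE of 0.23 for Otx2 in either part. The wider rostral spread thus enters the caudal interval, which does not measure the caudal pools alone. Gbx2 lay farther below the reference in caudal than in rostral pools, the reverse of Otx2, but was called lower in both. It was 1.47-fold below the reference in rostral pools (-0.56 ± 0.28, adjusted p = 0.0026) and at least 4.12-fold below it in caudal pools (fitted -2.07 ± 0.17, adjusted p = 3.7e-07). Otx1 was below it in rostral pools, by a fitted -0.68 ± 0.29 (adjusted p = 0.0027) with 1 of 4 pools well above background and by -2.12 in the processed signals, and did not pass the test in caudal pools (-0.19 ± 0.37, adjusted p = 0.302). In rostral pools 3 of 3 members were called lower, against 31.8% of all genes lower and 29.4% higher (61.2% called; 7378 higher and 4595 lower with median centring, 6198 and 5408 in the processed signals). In caudal pools 1 of 3 was called lower, against 31.8% of all genes lower and 27.6% higher (59.4% called; 7085 and 4609 with median centring, 6049 and 5269 in the processed signals). These comparisons share the reference and are set side by side only.

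The isthmic organiser genes, which the OTX and GBX factors position, were tested for 19 of 20 listed. Between the parts 4 were higher in caudal pools and 1 in rostral pools, against 2.8% and 3.53% of all genes, with a median rostral minus caudal difference of -0.07 (all genes 0.01). Pax8, a paired-box factor of the midbrain-hindbrain boundary, was 4.24-fold higher in caudal pools (log2 -2.09, SE 0.21, adjusted p = 0.00088), En2 1.87-fold (-0.90, SE 0.12, adjusted p = 0.0028) and the FGF antagonist gene Il17rd 1.71-fold (-0.78, SE 0.13, adjusted p = 0.0078). En1, the other called gene, stood at -0.78 (adjusted p = 0.014). Etv5, a transcription factor gene induced by FGF signalling, was 2.17-fold higher in rostral pools (1.12, SE 0.14, adjusted p = 0.0026). Fgf8, the organiser's ligand, stood at -0.01 (SE 0.05, adjusted p = 0.945) and Wnt1 at -0.33 (SE 0.13, adjusted p = 0.204). Both rest on the brightest probe. The other probes of Fgf8, and that of Wnt1, were well above background in at most 1 rostral and in 0 caudal pools. Against the reference, 13 of the 19 were lower in Gfp-positive cells and 4 higher, against 36.9% and 34.6% of all genes, En1 (2.09) and En2 (1.89) among the latter and Etv4 at -2.69 among the former.

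Genes of the territories on either side of the Otx domain were then set beside the members. On the forebrain side, 14 of 18 listed genes were tested, and 6 were higher in rostral and 1 in caudal pools (median 0.67), against 3.53% and 2.8% of all genes. Fezf1, a forebrain zinc finger gene, was 9.38-fold higher in rostral pools (log2 3.23, SE 0.28), Nkx2-1, of the hypothalamus, 4.95-fold (2.31, SE 0.13) and Fezf2 2.40-fold (1.26, SE 0.17), with limma adjusted p of 0.00059, 0.00011 and 0.0032. The caudal signals of Fezf1 and of Fezf2 each passed the background flag in 1 of 4 pools. Lhx9 was higher in caudal pools (-1.60, SE 0.20, adjusted p = 0.0024), while its dimmer probes gave -0.40 and -0.42. All 16 genes of this list tested against the reference were lower in Gfp-positive cells, with a median of -3.03, against 36.9% of all genes. On the hindbrain side, 7 of 12 listed genes were tested, and 3 were higher in caudal and 0 in rostral pools (median -0.66), against the same 2.8% and 3.53%. Among these were Irx2 (-1.25, SE 0.22, adjusted p = 0.0097) and the serotonergic factor gene Fev (-0.82, SE 0.14, adjusted p = 0.0099). Against the reference 7 of 9 such genes were lower and 0 higher, against 36.9% and 34.6% of all genes.

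Over all genes 3.53% were higher in rostral and 2.8% in caudal pools, shares that stand beside each count of markers here. Among subthalamic and hypothalamic markers 4 of 6 were higher in rostral pools, as Gbx2 was. Barhl1 (-0.18, limma adjusted p = 0.759) and Lmx1b (0.27, limma adjusted p = 0.562) were not called. All 6 were well above background in some pool, and their summed sample signal was 6990 to 10444 in rostral and 3063 to 4701 in caudal pools. Of serotonergic and hindbrain markers 1 of 3 tested, Fev, was higher in caudal pools. Their summed signal was 1905 to 2514 in rostral pools, 3174 to 3632 in caudal pools 1, 3 and 4 and 7503 in caudal pool 2, the lowest caudal pool for Otx2, and Tph2 was well above background in no pool. Of midbrain GABAergic markers 1 of 7 was higher in rostral and 2 in caudal pools (median difference 0.00), with sums of 152985 to 248418 and 110291 to 169033. Progenitor and radial glia markers, 1 of 8 called and that one caudal, had a median rostral minus caudal difference of 0.21. They summed to 54244 to 67614 in rostral and 65519 to 75943 in caudal pools, and such a sum rests mostly on the brightest genes. Red nucleus and glutamatergic markers, 1 of 5 called, summed to 29017 to 41278 and 31763 to 36158. The part of these cells in the differences of Otx2 and Gbx2 was not tested. Choroid plexus, a tissue that expresses Otx2, had 0 of 4 tested markers called by limma, with unadjusted p from 0.487 to 0.980. Its summed signal was 23874 in rostral pool 1 and 3379 to 4400 in the other 7 pools. Without rostral pool 1 the Otx2 difference was -2.04 (limma adjusted p = 0.016). The part of choroid plexus cells in the Otx2 difference was not tested either.

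Genes that are tied to Otx2 by earlier genetic work in midbrain progenitors were tested for 13 of 14 listed, with 2 higher in caudal and 1 in rostral pools (median -0.33; all genes 2.8% and 3.53%). Nkx6-1 was 5.87-fold higher in caudal pools (log2 -2.55, SE 0.32, adjusted p = 0.0024), from -0.05 ± 0.35 in caudal to -2.60 ± 0.68 in rostral pools. Msx1, a homeobox gene of dopaminergic progenitors, was 1.89-fold higher in caudal pools (-0.92, SE 0.17, adjusted p = 0.012). Nkx2-2, a ventral homeobox gene that OTX2 is known to restrain in the midbrain, was 2.07-fold higher in rostral pools (1.05, SE 0.14, adjusted p = 0.0037), and its other probe gave 1.01 (adjusted p = 0.0698). Foxa1 stood at -0.31 (SE 0.08, adjusted p = 0.059). Against the reference 7 were higher and 7 lower of 14 (all genes 34.6% and 36.9%), with Foxa1 (3.94), Foxa2 (3.70) and Lmx1a (3.39), factors of floor plate and dopaminergic neurons, far above it.

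Genes tied to Otx2 in ventral tegmental dopaminergic neurons were tested for 11 of 12 listed. Between the parts 2 were higher in caudal and 1 in rostral pools (median 0.17; all genes 2.8% and 3.53%). Aldh1a1, a retinaldehyde dehydrogenase, was 1.48-fold higher in rostral pools (log2 0.57, SE 0.09, adjusted p = 0.0066). The semaphorin receptor genes Nrp1 (-0.79, SE 0.16, adjusted p = 0.021) and Plxnc1 (-0.45, SE 0.10, adjusted p = 0.025) were higher in caudal pools, and another probe of Plxnc1 gave -0.47 (adjusted p = 0.297). Slc6a3, the dopamine transporter, stood at 0.24 (SE 0.07, adjusted p = 0.09). Against the reference 7 of the 11 were higher and 1, Neurod6 (-1.39), was lower (all genes 34.6% and 36.9%).

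**Figure D4:**
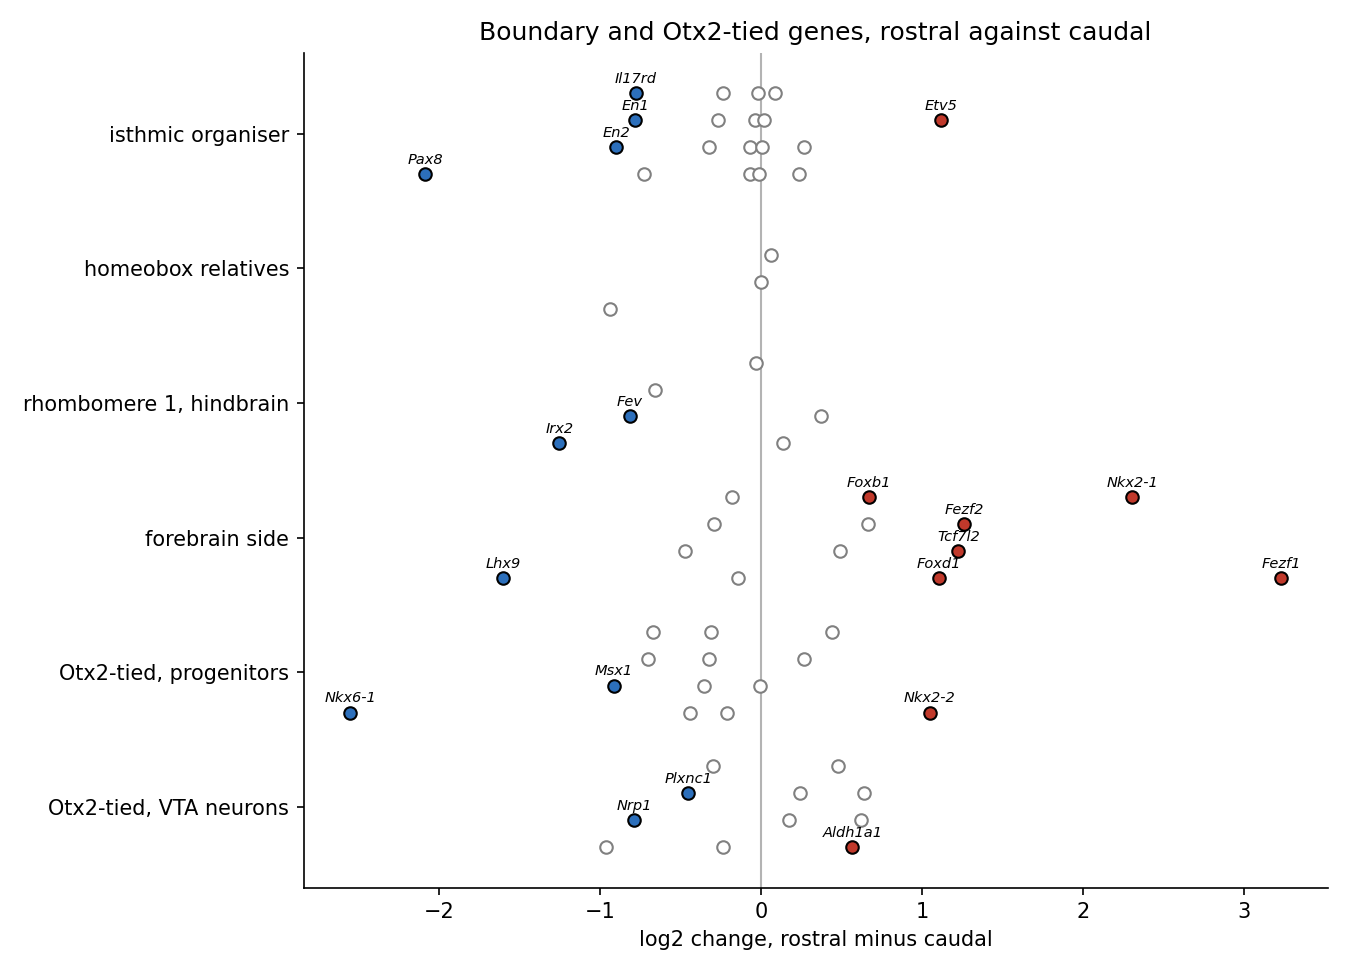
Log2 difference of rostral minus caudal Gfp-positive pools for the tested genes of the 6 lists that are reported here, 1 point a gene, filled and named where limma's adjusted p was below 0.05 (red higher in rostral, blue higher in caudal). Among the named genes Fezf1 (3.23) and Nkx2-1 (2.31) stand at the rostral end and Nkx6-1 (-2.55) and Pax8 (-2.09) at the caudal end.

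Of the homeobox relatives of the members, those described here did not pass the test between the parts. Dmbx1, an OTX-like factor gene of the midbrain, stood at -0.94 (SE 0.32, adjusted p = 0.138), Gbx1, the paralogue of Gbx2, at 0.06 (SE 0.13, adjusted p = 0.868) and Pitx3 at -0.00 (SE 0.09, adjusted p = 0.997). For the brighter probe of Gbx1 the Gfp-positive signal was well above background in 3 of 4 rostral and 3 of 4 caudal pools. The reference signal never was, which leaves its ratio without a measured denominator. The other Gbx1 probe passed the flag in 1 rostral and 0 caudal pools. Crx, the remaining OTX family gene, passed the background flag in 1 rostral and 1 caudal pool only and was not tested.

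The genes most like each member were named by the Pearson correlation of log2 ratios over the 8 pools, among 18046 genes measured in all pools. The points share 1 reference and 1 slide and fall into the 2 parts, so these values describe likeness and carry no test. For Otx2 they were Asb4 (0.997), Arhgap29 (0.993), Dnajc12, a co-chaperone of the aromatic amino acid hydroxylases (0.993), and Gpr153 (0.989). All 4 shared the rostral order of Otx2, pool 2, 4, 1, 3, which their choice by likeness over these same pools favours. Asb4 averaged 0.35 ± 0.59 in the rostral and 1.87 ± 0.15 in the caudal part, and Dnajc12 averaged 1.47 ± 0.61 and 2.86 ± 0.04, so unlike Otx2 both were above the reference in the mean of each part. Other probes of Asb4 and Arhgap29 gave differences of -0.66 and -0.28, against -1.53 and -1.70 by the probes used. For Gbx2 they were Inha, the inhibin alpha subunit (0.993), Dlx2, of forebrain GABAergic neurons (0.986), Fezf2 (0.979) and 3110001N23Rik (0.979), with differences of 0.58, 3.13, 1.26 and 1.12. For Otx1, whose ratios lay near background, they were 2310022B05Rik (0.982), Zfp28 (0.977), the VEGF receptor gene Flt1 (0.971) and Zfp503 (0.954), and none of these 4 passed the test between the parts (limma adjusted p of 0.211 to 0.396; unadjusted p of 0.0336 to 0.105, below 0.05 for 2 of them).

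The arrays lay in 2 rows of 1 slide, with 2 pools of each part in a row. Within the rows the rostral minus caudal difference was -1.60 and -2.54 for Otx2, 1.47 and 1.56 for Gbx2, and -0.67 and -0.33 for Otx1. With 2 pools against 2, limma's adjusted p within the rows was 0.185 and 0.0534 for Otx2 and 0.162 and 0.0582 for Gbx2. With the row as a block over all 8 pools both remained below the threshold (0.0097 and 0.0027).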

How the data were processed

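Each scanner file held, per the file headers, the deposited spot intensity of both channels and flags from Agilent Feature Extraction 10.7.3.1. The submitters' processing notes also name RMA, with no role. The 8 value columns of the annotated table match no label and were not used. Its annotation and RefSeq named 23912 genes.

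Median intensities were corrected with normexp (offset 50) and normalized by loess within arrays in limma 3.58.1 (R 4.3.3), with control and outlier spots at weight 0, and ratios were turned to sample over reference. Channel levels were scaled by Aquantile. The brightest probe stood for a gene, tested if well above background on at least 4 arrays. lmFit and eBayes with Benjamini-Hochberg adjustment were used at 0.05, on all 8 pools. The script was tested on simulated data.

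The members and lists were chosen with earlier results of these data known. Named were the members, up to 4 genes of each list with the smallest p per comparison, and the 4 genes most like each member. Genes named outside that rule were chosen after their values were seen. Alternatives were the processed signals, median centring, no filter, the mean over probes, the sample channel alone, blocks, and leaving out each pool. Fits within slide rows were added after seeing the data. Some genes of the lists are not reported here by name.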

Additional observations from a re-analysis of the deposited data

Results flagged for a closer look

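The ratio of Gfp-positive cells to the reference differed between the parts for Otx2, by -2.07 on the log2 scale (rostral minus caudal, limma adjusted p = 0.0062). It differed in the other direction for Gbx2, by 1.51 (limma adjusted p = 0.0016). All 4 pools of a part lay on one side of the other part's pools for both genes, as for 12.5% of all genes tested. Gbx2 was well above background in no caudal pool. By Dixon's test no pool stood apart from the other 3 of its part in any member. With so few pools the critical value is 0.829, so the test could flag only an extreme pool.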

How the results depend on the processing

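The rostral minus caudal differences of the 3 members kept their direction under all alternatives run. Leaving out 1 pool at a time gave -2.37 to -1.74 for Otx2 (highest adjusted p 0.0231), 1.42 to 1.63 for Gbx2 (highest 0.0065) and -0.66 to -0.37 for Otx1. Calls for Otx2 and Gbx2 were lost only within the slide rows, where 2 pools stand against 2: -1.60 (adjusted p = 0.185) and -2.54 (0.0534) for Otx2, and 1.47 (0.162) and 1.56 (0.0582) for Gbx2. The count of genes called between the parts, 1145, fell to 715 without caudal pool 1 and 754 without caudal pool 4 (highest 1011 without any 1 pool), to 0 within row 1 (2377 at an unadjusted p below 0.05) and to 186 within row 2, with fewer pools in each. Same-numbered pools did not deviate together (correlations of -0.07 to 0.02). These correlations cannot decide whether same-numbered pools share embryos, and the main fit did not pair them. With the replicate number as a block 724 genes were called, and the adjusted p was 0.0195 for Otx2, 0.0085 for Gbx2 and 0.159 for Otx1. Against the reference, all 3 members stayed lower and past the threshold under the 12 alternatives run. Signal near background limits Otx1 in both parts and Gbx2 in caudal pools.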

Other observations

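Otx2os1, a transcript from the strand opposite Otx2, was read by a probe of its own. Its log2 ratio to the reference was -1.08 ± 0.27 in rostral and -0.74 ± 0.24 in caudal pools (SD, n = 4). The rostral minus caudal difference was -0.34 (SE 0.18, limma adjusted p = 0.346), and over all pools Otx2os1 was below the reference (-0.91, SE 0.09, limma adjusted p = 8.4e-06). It was well above background in 3 of 4 rostral and 4 of 4 caudal pools. Whether its difference between the parts is smaller than that of Otx2 was not tested.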
